A study of Mus musculus with 12 samples.

Results

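The genes described here encode the extracellular metalloproteinases of mouse embryonic fibroblasts and their inhibitors. Members were every gene whose symbol starts with Mmp (matrix metalloproteinase), Adamts (a disintegrin and metalloproteinase with thrombospondin motifs) or Timp (tissue inhibitor of metalloproteinases) followed by a digit, which leaves out the Adamtsl genes. This gave 46 genes, 23 Mmp, 19 Adamts and 4 Timp, of 48709 gene IDs in the count tables. RNA sequencing counted reads per gene in 12 samples of cultured fibroblasts of the C57BL/6 strain. Each of 4 groups had 3 samples: WT or TAZKo by genotype, kept either in normoxia or for 24 hours in hypoxia. TAZKo cells are described by the submitters as without tafazzin, the enzyme encoded by Taz that remodels the mitochondrial lipid cardiolipin, and the WT cells as isogenic to them. All cells grew in DMEM medium with fetal bovine serum, and hypoxia was given in a closed workstation. The oxygen level, and whether the 3 samples of a group came from separate cultures or lines, are not given in the sources used here, so p-values measure the spread between these samples, which may be technical.

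Matrix metalloproteinases are zinc-dependent enzymes that are made as inactive proenzymes and that cleave collagens, gelatin, laminins and many surface proteins once activated. ADAMTS proteases are secreted relatives that bind the matrix through thrombospondin repeats. They process procollagens, trim proteoglycans such as versican and act on fibrillin microfibrils. TIMPs bind the active site of these enzymes, and the complex of TIMP-2 with the membrane protease of Mmp14 activates the gelatinase of Mmp2. Fibroblasts are a main source of all of these proteins in connective tissue.

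Total counts ran from 21039451 to 31204510 per sample, so 3 counts, taken as the floor of detection, were worth 0.0927 to 0.15 CPM (counts relative to library size, scaled by TMM, the trimmed mean of M values). Floors cover counting error only. Taz itself was not reduced in the libraries labelled TAZKo. Its level was 32.6 to 38 CPM in normoxic WT, 39.8 to 45.8 in normoxic TAZKo, 23.5 to 26.4 in hypoxic WT and 32.8 to 35 in hypoxic TAZKo libraries. Relative to the libraries labelled WT its log2 level was higher by 0.29 ± 0.079 in normoxia (adjusted p = 0.0139 in edgeR) and by 0.43 ± 0.081 in hypoxia (adjusted p = 0.00112 in edgeR), so every genotype direction below rests on the labels. Log2 values carry ± the SE throughout. WT normoxia sample 1 stood apart from its group: the mean chi-square per gene against samples 2 and 3 was 36.7 and 43.5, against 5.76 between those samples. Sample 1 was also the farther one, by less, in hypoxic WT (13.7 and 14, against 3.67 between samples 2 and 3) and in normoxic TAZKo (8.69 and 11, against 2.9). Of 9 fibroblast markers, 8 had more than 3 counts in every library, with a summed level of 4219 to 8128 CPM, while Thy1 had 2 to 8 counts and Col1a2 36 to 147. Markers of other cell types were mixed. Adgre1 (macrophage), S100a9 (neutrophil) and Myod1 (muscle) had no count, and Ptprc had at most 1 and Cdh5 at most 2 in any library. Other markers on those lists were detected, among them Krt18 (2249 to 3678 counts), Tek (56 to 480), Des (57 to 325), Cd68 (66 to 218) and Sox9 (16 to 222).

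Of the 46 members, 27 passed the filter on low counts (filterByExpr of edgeR) and were tested, 13 Mmp, 11 Adamts and 3 Timp genes. Of these, 25 had more than 3 counts in all 12 libraries, and Mmp3 (2 to 12 counts) and Mmp10 (0 to 36 counts) did not. The 19 untested members had low counts. Adamts19, Adamts20, Mmp7 (matrilysin) and Mmp20 (enamelysin) had 0 counts in all 12 libraries, which allows up to 3 counts in each. A further 12 reached 1 to 5 counts: Adamts8, Adamts12, Adamts13 (the protease of von Willebrand factor), Adamts15, Adamts18, Mmp1a, Mmp1b, Mmp8 (neutrophil collagenase), Mmp12 (macrophage elastase), Mmp21, Mmp25 and Timp4. Adamts17 reached 8 counts, Mmp27 reached 12 and Mmp24 reached 14. Mmp27 had 2, 2 and 7 counts in normoxic WT, 0, 2 and 1 in normoxic TAZKo, 9, 4 and 12 in hypoxic WT and 3, 3 and 2 in hypoxic TAZKo. Mmp24 had 2, 6 and 7 counts in normoxic WT, 4, 3 and 5 in normoxic TAZKo, 3, 5 and 14 in hypoxic WT and 8, 8 and 12 in hypoxic TAZKo. The counts of Mmp27 and Adamts13 did not overlap between genotypes in hypoxia. Those of Adamts17 in WT and of Mmp24 and Mmp25 in TAZKo did not overlap between normoxia and hypoxia. No share of all untested genes is given for this.

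Promoter windows are printed for 6 of the tested members because they carry the sequence features that members share or that touch the hypoxia comparison. RefSeq windows (build GRCm38.p6, 250 bases before to 50 bases after a start) matched 32 of the 46 members. Capitals mark 4 motifs. The core of the hypoxia response element, which HIF binds, was searched on both strands as ACGTG, which on the other strand is read backwards as its complement (capitals in Mmp14). Its second form, GCGTG, was searched likewise. The AP-1 site, bound by dimers of Fos and Jun proteins, was searched on both strands as TGANTCA. The TATA box was searched as TATAAA on the strand of the gene. Matches of different motifs, or on opposite strands, can share letters at their ends, and in the 6 printed windows none do.
Mmp13 (chr9:7272264-7272563, plus strand): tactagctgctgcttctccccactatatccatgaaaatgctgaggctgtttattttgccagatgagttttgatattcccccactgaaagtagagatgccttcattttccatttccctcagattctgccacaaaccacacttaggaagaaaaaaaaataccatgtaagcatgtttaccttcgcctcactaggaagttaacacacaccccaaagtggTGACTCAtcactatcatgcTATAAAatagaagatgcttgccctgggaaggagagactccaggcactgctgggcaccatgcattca
Mmp3 (chr9:7445572-7445871, plus strand): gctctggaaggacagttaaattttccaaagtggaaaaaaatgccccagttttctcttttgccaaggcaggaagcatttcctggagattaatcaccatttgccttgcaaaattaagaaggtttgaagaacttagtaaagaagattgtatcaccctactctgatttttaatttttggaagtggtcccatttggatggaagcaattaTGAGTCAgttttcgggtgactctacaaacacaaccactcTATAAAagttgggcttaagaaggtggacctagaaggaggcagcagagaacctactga
Mmp10 (chr9:7502092-7502391, plus strand): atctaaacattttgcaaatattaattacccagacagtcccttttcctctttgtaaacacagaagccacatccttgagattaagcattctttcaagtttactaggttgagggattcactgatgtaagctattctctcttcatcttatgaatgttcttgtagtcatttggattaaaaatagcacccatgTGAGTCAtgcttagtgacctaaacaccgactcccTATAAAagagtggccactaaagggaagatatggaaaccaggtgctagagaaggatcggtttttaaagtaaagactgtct
Adamts1 (chr16:85803064-85803363, minus strand): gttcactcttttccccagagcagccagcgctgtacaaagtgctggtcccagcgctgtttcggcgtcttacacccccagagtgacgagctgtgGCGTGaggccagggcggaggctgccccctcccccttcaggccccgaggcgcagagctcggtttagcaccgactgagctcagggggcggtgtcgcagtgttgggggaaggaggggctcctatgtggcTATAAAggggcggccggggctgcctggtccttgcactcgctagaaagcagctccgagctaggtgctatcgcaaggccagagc
Timp1 (chrX:20869916-20870215, plus strand): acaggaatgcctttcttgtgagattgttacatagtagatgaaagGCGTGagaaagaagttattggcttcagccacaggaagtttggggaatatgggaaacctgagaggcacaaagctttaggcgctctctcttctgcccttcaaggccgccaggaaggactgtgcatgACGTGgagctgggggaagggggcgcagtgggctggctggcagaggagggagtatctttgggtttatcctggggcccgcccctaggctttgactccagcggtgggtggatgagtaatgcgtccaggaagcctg
Mmp14 (chr14:54431348-54431647, plus strand): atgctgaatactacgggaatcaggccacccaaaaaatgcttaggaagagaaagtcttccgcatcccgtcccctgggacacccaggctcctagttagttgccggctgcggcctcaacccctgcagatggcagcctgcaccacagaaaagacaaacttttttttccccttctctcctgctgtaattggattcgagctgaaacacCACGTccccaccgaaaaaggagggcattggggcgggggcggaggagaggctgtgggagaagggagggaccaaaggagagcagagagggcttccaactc

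The first 3 sequences belong to a cluster of 10 adjacent Mmp genes on chr9:7272514-7699585 (GRCm38), with no other annotated protein-coding gene inside it. In order these are Mmp13, Mmp12, Mmp1b, Mmp3, Mmp1a, Mmp10, Mmp8, Mmp27, Mmp20 and Mmp7. All 10 have a window, and 8 of them hold both TGANTCA and TATAAA, the exceptions being Mmp8 and Mmp27. None of the 22 members outside the cluster with a window holds TGANTCA, and TATAAA stands in the windows of Adamts1 and Mmp21 there. Over all 32851 RefSeq windows, 7.81% hold TGANTCA and 8.32% hold TATAAA. Although 8 cluster genes share this layout, only Mmp3, Mmp10 and Mmp13 passed the filter, and these 3 were called in different comparisons, as given below. A hypoxia core of either form stood in 15 of 35 member windows (42.9%), against 43.8% of all windows. Of all windows 19.6% hold ACGTG, and for GCGTG that share is 32.4%. Tested members with a core were Adamts1, Timp1 and Timp3, which rose under hypoxia in the libraries labelled WT, Adamts3, Adamts14, Mmp14 and Timp2, which fell there, and Adamts9, which was not called. A match is a description of letters and not of a bound site.

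Levels between genes were compared per kilobase of merged exons (GENCODE M21). The inhibitors led. Timp2 averaged 216 CPM per kb over the 12 samples, Timp3 103 and Timp1 58.1, and the ranges of Timp2 and Timp3 did not overlap with the next gene in the order. Timp1, Adamts1 (39.4 CPM per kb), Mmp2 (33.2), Mmp11 (29.2) and Mmp14 (20.6) followed with ranges that overlapped from neighbour to neighbour. A gap then separated Mmp14, at 13.5 or more in every sample, from Adamts9, at 11.5 or less. From Adamts9 (8.37 CPM per kb) down to Mmp3 (0.189) every neighbour in the order overlapped with the next. Timp2 alone made up 29.1% to 46.5% of the summed level per kb of the members in a sample. Timp3 shares 36.3% of the 50-base words of its longest transcript with other genes, mainly Syn3, whose exons overlap it on the opposite strand, and Mmp19 shares 25.4% with its opposite-strand neighbours. The library kit (TruSeq RNA v2) does not mark strand, so the levels of Timp3 and Mmp19 are uncertain. To a lesser extent so are those of Mmp28 and Adamts9. Of the exon bases of Mmp28, 12% lie over a gene on the opposite strand. For Adamts9, 9.18% lie over A730049H05Rik and 2.82% over Gm15737, both on the opposite strand.

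**Figure D1:**
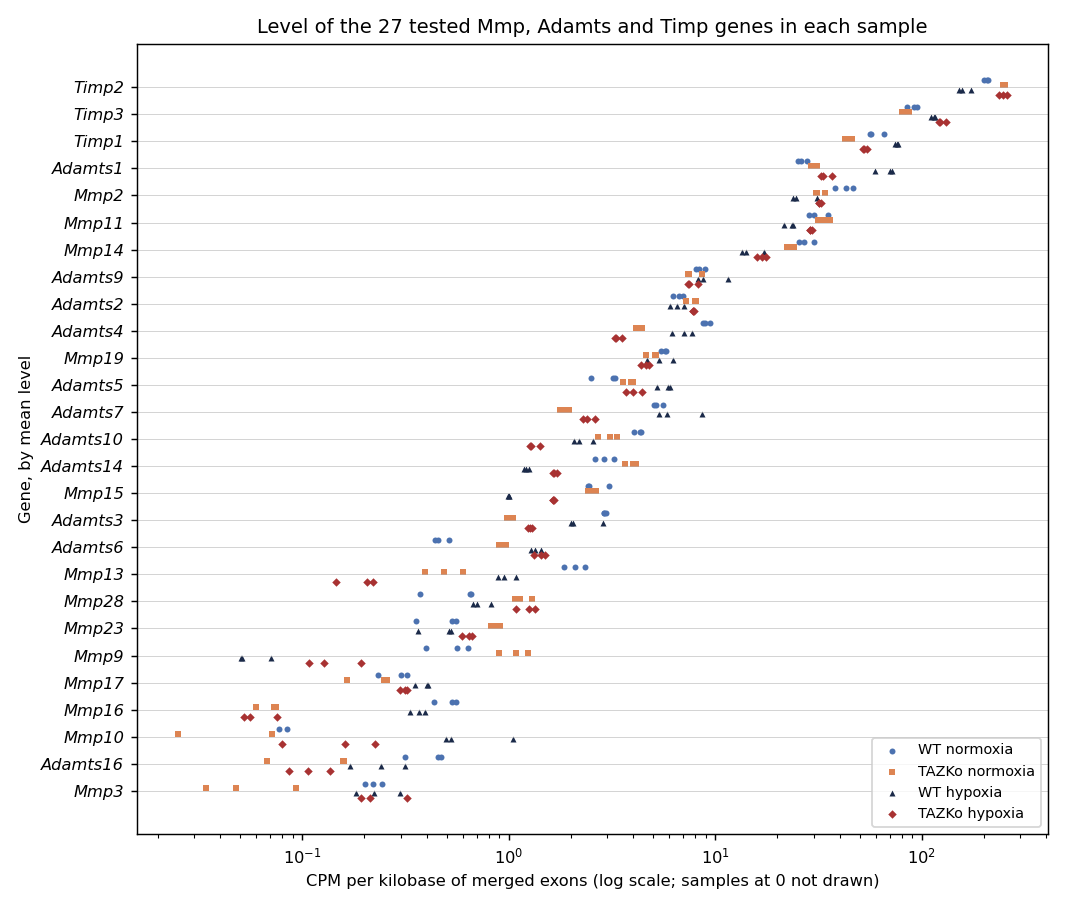
Level of each tested gene in each of the 12 samples, in CPM per kilobase of merged exons on a log axis, genes ordered by mean level, with color and shape for the 4 groups. The 3 Timp genes stand at the top, Timp2 between 150.4 and 258 CPM per kb, and Mmp3 at the bottom; the 2 samples in which Mmp10 had 0 counts are not drawn.

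Summed per kb over a family, the Timp genes stood at 351 to 359 CPM per kb in normoxic WT, 376 to 379 in normoxic TAZKo, 336 to 364 in hypoxic WT and 409 to 444 in hypoxic TAZKo. The Mmp genes summed to 104 to 125 CPM per kb in normoxic WT, 96.1 to 103 in normoxic TAZKo, 70.1 to 83.8 in hypoxic WT and 85.3 to 88.2 in hypoxic TAZKo. The Adamts sum was 69.2 to 70 in normoxic WT, 62.8 to 67.2 in normoxic TAZKo and 63.1 to 68.7 in hypoxic TAZKo, and it reached 108 to 111 in hypoxic WT. Adamts1 alone went from a mean of 26.3 CPM per kb in normoxic WT to 67.1 in hypoxic WT. These sums are descriptions without a test, and in bulk RNA fewer cells of a type and less RNA per cell cannot be told apart.

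Comparing the genotypes in normoxia, the edgeR quasi-likelihood test called 19 of the 27 tested members (adjusted p under 0.05), or 70.4%, against 30.4% of all 14408 tested genes. Of these, 8 stood higher in the libraries labelled TAZKo (15.6% of all tested genes did) and 11 stood lower (14.9%). The log2 difference reached 1 in 9 of them, against 5.96% of all tested genes. Mmp9 and Mmp28 were higher by that much, and Adamts3, Adamts4, Adamts7, Adamts16, Mmp3, Mmp13 and Mmp16 lower. The 3 samples of each genotype did not overlap in 21 of the 27, against 42.8% of all tested genes. The members' median log2 difference was -0.19, beside 0.0099 for all tested genes. Without WT normoxia sample 1 the count was 20. Shares of all tested genes are given for the main fit alone, here and below.

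In hypoxia 19 members were again called between genotypes, 70.4% of those tested against 32.8% of all tested genes. The libraries labelled TAZKo were higher for 8 (15.8% of all tested genes) and lower for 11 (16.9%). In 7 the log2 difference reached 1, against 5.82% of all tested genes: Mmp9 was higher, and Adamts4, Adamts7, Adamts16, Mmp10, Mmp13 and Mmp16 were lower. Samples of the genotypes did not overlap in 22 members, against 50% of all tested genes. The median log2 difference was -0.25 for the members and -0.0078 for all tested genes. The genes lower in both conditions numbered 8: Adamts3, Adamts4, Adamts7, Adamts10, Adamts16, Mmp13, Mmp16 and Timp1. Another 5 were higher in both: Adamts2, Adamts14, Mmp9, Mmp28 and Timp2. Adamts5 and Mmp2 were called in opposite directions in normoxia and hypoxia. For calls in both comparisons no share of all tested genes is given, so these counts are descriptions of the members alone. Without WT normoxia sample 1 the hypoxia count was 22. The summed level of the endothelial markers moved with the genotype too, at 14.5 to 21 CPM in the libraries labelled WT and 3.84 to 7.44 in those labelled TAZKo, carried by Tek and Kdr, the 2 of 4 markers with more than 3 counts in every library. Of the others, Cdh5 had 0 to 2 counts, and Pecam1 averaged 0.227 CPM in normoxic WT, 0.576 in normoxic TAZKo, 0.234 in hypoxic WT and 0.195 in hypoxic TAZKo. The summed fibroblast markers stood at 5077 to 6084 CPM in normoxic WT, 4219 to 4417 in normoxic TAZKo, 7063 to 8128 in hypoxic WT and 5685 to 6088 in hypoxic TAZKo libraries. Col1a1 set the direction of this sum, with a mean of 2833 CPM in normoxic WT and 1152 in normoxic TAZKo. The means of Col3a1 (749 and 660), Col1a2 (5.33 and 2.12) and Thy1 (0.175 and 0.116) were lower in normoxic TAZKo too. Those of Vim (1279 and 1741), Pdgfra (165 and 208), Pdgfrb (49.6 and 104), Dcn (363 and 390.2) and S100a4 (19.3 and 45.6) were higher there. The part of such marker levels in the genotype differences was not tested.

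Hypoxia lowered more members than it raised. In the libraries labelled WT it changed 19, 70.4% of the 27 tested against 51% of all tested genes. Of these 6 rose (26% of all tested genes) and 13 fell (25%), with a median log2 change of -0.062 beside 0.0089 for all genes. The change reached 1 on the log2 scale in 7 (11.2% of all tested genes), upwards in Adamts1, Adamts6 and Mmp10 and downwards in Adamts14, Mmp9, Mmp13 and Mmp15. Conditions did not overlap in 20 members, against 54.6% of all tested genes. In the libraries labelled TAZKo 12 changed, 44.4% against 43.8% of all tested genes, a share near that of the whole table. Of these 4 rose (22.2% of all tested genes) and 8 fell (21.6%). A log2 change of 1 was reached by 5 (8.44% of all tested genes), upwards in Mmp3 and downwards in Adamts10, Adamts14, Mmp9 and Mmp13, and 18 did not overlap between conditions, against 61.1% of all tested genes. The median log2 change there was -0.019 beside -0.0088 for all genes. The fall was common to both genotypes in 8 members, Adamts4, Adamts10, Adamts14, Mmp9, Mmp11, Mmp13, Mmp14 and Mmp15. Adamts6, Timp1 and Timp3 rose in both, and none moved in opposite directions. Here too no share of all tested genes is given for calls in both comparisons. Without WT normoxia sample 1 the counts were 21 and 15. Sample 2 of each genotype was on another sequencing lane in hypoxia than in normoxia, and with lane in the fit the counts were 20 and 13. Marker levels moved with hypoxia as well. The cartilage markers summed to 1.23 to 1.82 CPM in normoxia and 6.51 to 8.85 in hypoxia over both genotypes, carried by Sox9, 1 of 3 markers with more than 3 counts in every library, while Acan had at most 1 count. The macrophage sum was 4.85 to 7.23 CPM in normoxia and 8.61 to 13.9 in hypoxia, and the fibroblast sum is given above. Markers within both lists disagreed. Cd68 and Csf1r had higher means in hypoxia in both genotypes, and Lyz2 had lower ones. Col1a1, Vim (1279 and 2945 CPM in WT), S100a4 and Thy1 also had higher means in hypoxia in both genotypes. Those of Col3a1 (749 and 587 CPM in WT), Pdgfra, Pdgfrb and Dcn were lower in both, and Col1a2 was lower in WT and higher in TAZKo. The part of these levels in the hypoxia changes was not tested.

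**Figure D2:**
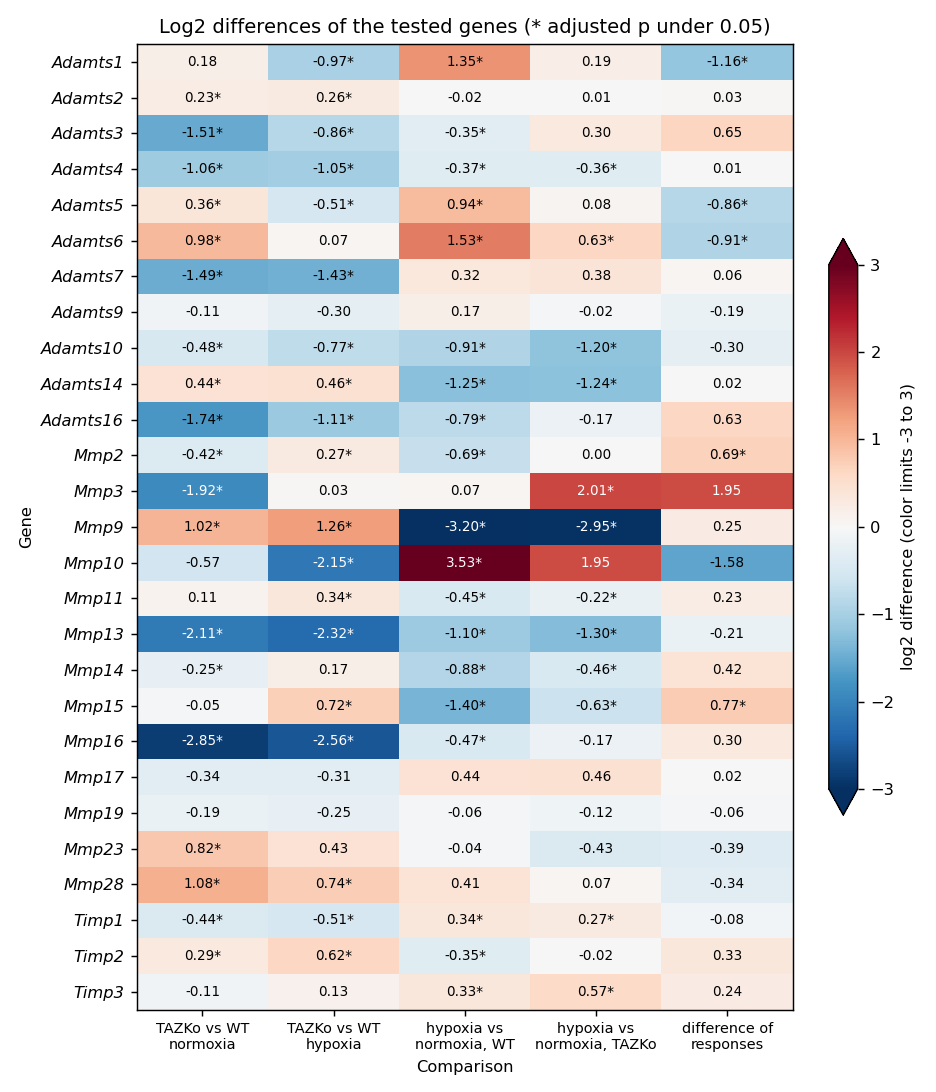
Log2 differences of the 27 tested genes (rows) in the 5 comparisons (columns), as numbers and colors, with a star where the edgeR adjusted p was under 0.05. Red marks higher in the libraries labelled TAZKo or in hypoxia; stars stand on 19, 19, 19, 12 and 5 genes from left to right.

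The hypoxia response itself differed between the genotypes in 5 of the 27 tested members (18.5%), against 2.43% of all tested genes. The response of Adamts1, Adamts5 and Adamts6 was lower in the libraries labelled TAZKo (1.71% of all tested genes), and that of Mmp2 and Mmp15 was higher (0.722%). Mmp15 fell less there, and the change of Mmp2 there was not called. Adamts1 alone passed a log2 difference of 1, as did 0.569% of all tested genes. With unadjusted p-values 11 members were under 0.05, a limit for which no share of all tested genes is given here. The calls of Adamts1, Adamts5, Adamts6 and Mmp15 held in all 19 other settings tried without a limit on the log2 difference. That of Mmp2 was lost in 1 of these settings, without WT hypoxia sample 3 (log2 difference 0.66, adjusted p = 0.0528 in edgeR). The count rose to 7 without WT normoxia sample 1 and to 8 without WT hypoxia sample 1.

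**Figure D3:**
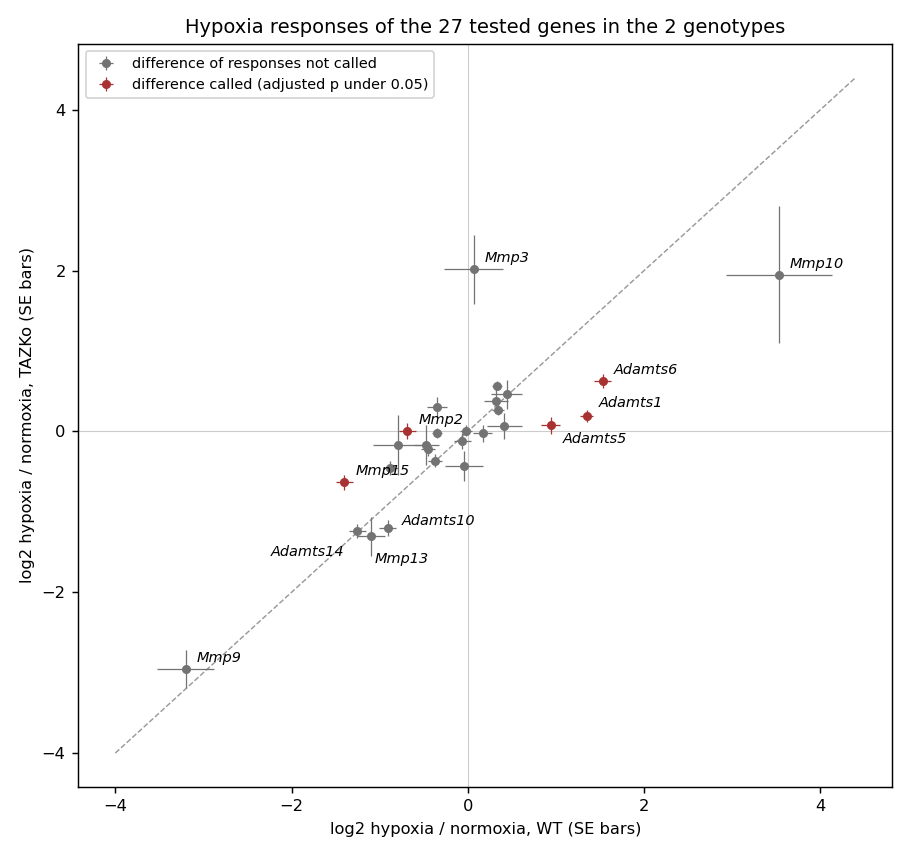
Log2 change under hypoxia in the libraries labelled WT (horizontal) against those labelled TAZKo (vertical), 1 point per tested gene with SE bars, and a dashed line where the changes are equal. The 5 genes with a called difference (red) lie nearer to 0 on the vertical axis than on the horizontal one; the 2 axes share no sample.

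Adamts1 had the largest of these 5 differences by absolute log2 value. It encodes a secreted proteoglycanase that cleaves versican and aggrecan (ENSMUSG00000022893, chr16:85793827-85803113, minus strand). Its level was 134, 147 and 139 CPM in the 3 WT normoxia samples, 154, 157 and 165 in normoxic TAZKo, 315, 382 and 371 in hypoxic WT and 173, 195 and 176 in hypoxic TAZKo. Every WT hypoxia sample stood above all other 9 samples. The hypoxia change was 1.35 ± 0.078 (adjusted p = 1.08e-08 in edgeR) in the libraries labelled WT and 0.19 ± 0.077 (adjusted p = 0.0573 in edgeR) in those labelled TAZKo. The difference between these changes was -1.16 ± 0.11 (adjusted p = 0.00016 in edgeR). In hypoxia the libraries labelled TAZKo were lower, with a log2 difference of -0.97 ± 0.077 (adjusted p = 7.14e-07 in edgeR), while in normoxia the difference was 0.18 ± 0.077 (adjusted p = 0.0872 in edgeR). With the replicate number as a block that normoxia difference passed the threshold (0.19, adjusted p = 0.0251 in edgeR). The rise in the libraries labelled TAZKo passed it in 6 of 20 other settings, among them without WT normoxia sample 1 (0.19, adjusted p = 0.0315 in edgeR) and without WT hypoxia sample 1 (0.16, adjusted p = 0.0489 in edgeR). The promoter printed above holds GCGTG and TATAAA.

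Adamts5, the neighbour of Adamts1, followed the same course at a lower level. It encodes the major aggrecanase of mouse cartilage and lies 53059 bases away (ENSMUSG00000022894, chr16:85856173-85901828, minus strand), on the same strand with no annotated protein-coding gene between. Levels were 26.9, 34.5 and 35.2 CPM in normoxic WT, 38.4, 43.3 and 42.2 in normoxic TAZKo, 56.2, 65.3 and 63.9 in hypoxic WT and 39.7, 47.7 and 43.1 in hypoxic TAZKo. Hypoxia raised it by 0.94 ± 0.10 (adjusted p = 6.05e-06 in edgeR) in the libraries labelled WT, and the change in those labelled TAZKo was 0.076 ± 0.10 (adjusted p = 0.589 in edgeR), with overlapping groups. The difference of responses was -0.86 ± 0.15 (adjusted p = 0.00684 in edgeR). The genotype difference therefore changed direction, from 0.36 ± 0.10 (adjusted p = 0.0191 in edgeR) in normoxia to -0.51 ± 0.10 (adjusted p = 0.00192 in edgeR) in hypoxia. The normoxia call was lost without TAZKo normoxia sample 2 (0.29, adjusted p = 0.111 in edgeR), without sample 3 (0.31, adjusted p = 0.0976 in edgeR) and with the 6 normoxia samples alone.

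Adamts6, which acts on fibrillin microfibrils, rose in both genotypes but from different starting levels (ENSMUSG00000046169, chr13:104287835-104496695, plus strand). It stood at 3.45, 3.99 and 3.55 CPM in normoxic WT and 7.57, 7.06 and 6.98 in normoxic TAZKo. In hypoxia it stood at 10.5, 10.0 and 11.2 CPM in WT and 10.4, 11.2 and 11.7 in TAZKo, where the genotypes overlapped. The changes were 1.53 ± 0.097 (adjusted p = 2.87e-08 in edgeR) in the libraries labelled WT and 0.63 ± 0.088 (adjusted p = 7.54e-05 in edgeR) in those labelled TAZKo, a difference of -0.91 ± 0.13 (adjusted p = 0.00289 in edgeR). In normoxia the libraries labelled TAZKo were higher by 0.98 ± 0.10 (adjusted p = 7.04e-06 in edgeR).

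The gelatinase gene Mmp2 and the membrane protease gene Mmp15 differed the other way. Mmp2 (ENSMUSG00000031740, chr8:92827291-92853420, plus strand) stood at 157, 128 and 145 CPM in normoxic WT, 103, 105 and 114 in normoxic TAZKo, 105, 79.9 and 82.7 in hypoxic WT and 109, 107 and 107 in hypoxic TAZKo. The TAZKo samples of both conditions thus lay between the WT groups, and WT hypoxia sample 1 reached their range. Hypoxia lowered Mmp2, with a log2 change of -0.69 ± 0.099 (adjusted p = 6.21e-05 in edgeR) in the libraries labelled WT. In those labelled TAZKo the change was 0.004 ± 0.098 (adjusted p = 0.98 in edgeR). The responses differed by 0.69 ± 0.14 (adjusted p = 0.0189 in edgeR). The libraries labelled TAZKo were lower in normoxia, at -0.42 ± 0.098 (adjusted p = 0.00553 in edgeR), and higher in hypoxia, at 0.27 ± 0.098 (adjusted p = 0.0473 in edgeR). This last call was lost in 10 of the 20 other settings, among them without any 1 of WT hypoxia samples 2 and 3 or of the 6 samples labelled TAZKo, and its adjusted p reached 0.194 without WT hypoxia sample 2 in edgeR. Without WT hypoxia sample 1 the value was 0.39, adjusted p = 0.00297 in edgeR.

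Mmp15 (ENSMUSG00000031790, chr8:95352268-95375080, plus strand) encodes a transmembrane MMP. Levels were 16.4, 13.1 and 13.2 CPM in normoxic WT and 14, 13.1 and 14.3 in normoxic TAZKo, which overlapped. Under hypoxia they were 5.4, 5.33 and 5.42 in WT and 8.94, 8.85 and 8.88 in TAZKo, with no overlap and little spread. The fall was -1.40 ± 0.10 (adjusted p = 9.62e-08 in edgeR) in the libraries labelled WT and -0.63 ± 0.094 (adjusted p = 0.000115 in edgeR) in those labelled TAZKo, with a difference of 0.77 ± 0.14 (adjusted p = 0.00998 in edgeR). In hypoxia the libraries labelled TAZKo were higher by 0.72 ± 0.10 (adjusted p = 0.00013 in edgeR). Mmp2 and Mmp15 both lie on chromosome 8. Relative to all genes, the median genotype difference of its genes was -0.17 in normoxia and -0.14 in hypoxia. These medians were opposite in sign to both members in hypoxia and equal in sign to both in normoxia. The normoxia difference of Mmp15 was not called (-0.045, adjusted p = 0.756 in edgeR). The part of this in the genotype differences of these members was not tested.

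**Figure D4:**
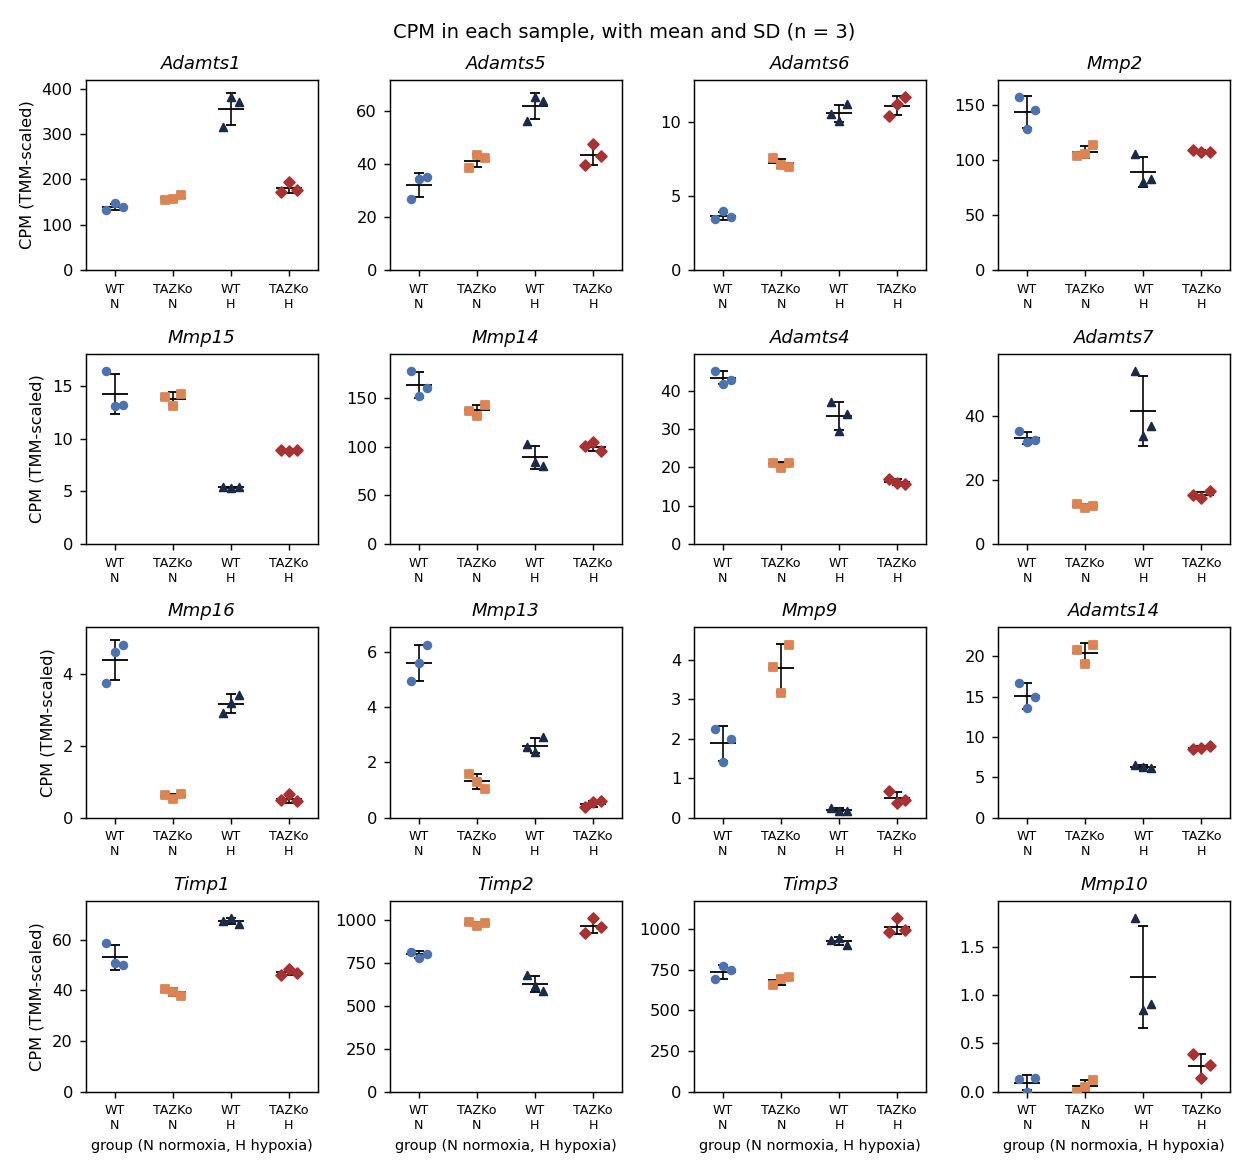
CPM of 16 members in each of the 12 samples (points), with the mean and SD of each group of 3 (bars), on axes that start at 0; N is normoxia and H is hypoxia. Adamts1 stands at 315 to 382 CPM in hypoxic WT against 134 to 195 in the other groups, and Mmp16 is at 0.453 to 0.657 in the libraries labelled TAZKo against 2.9 to 4.81 in those labelled WT.

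The other membrane MMPs did not move together. Mmp14, the membrane activator of the Mmp2 proenzyme (ENSMUSG00000000957, chr14:54431612-54445364, plus strand), stood at 178, 152 and 160.2 CPM in normoxic WT, 137, 132 and 143 in normoxic TAZKo, 103, 84.3 and 80.2 in hypoxic WT and 100.4, 104 and 95.3 in hypoxic TAZKo. All normoxia samples lay above all hypoxia samples. Hypoxia lowered it, with a log2 change of -0.88 ± 0.089 (adjusted p = 2.58e-06 in edgeR) in the libraries labelled WT and -0.46 ± 0.088 (adjusted p = 0.000915 in edgeR) in those labelled TAZKo, and the difference of responses missed the threshold, at 0.42 ± 0.13 (adjusted p = 0.109 in edgeR), and passed it in 4 of 19 other settings. Without WT hypoxia sample 1 it was called (0.55, adjusted p = 0.00939 in edgeR), as was the hypoxia genotype difference (0.27, adjusted p = 0.0172 in edgeR). The normoxia genotype difference of -0.25 ± 0.088 (adjusted p = 0.0457 in edgeR) was lost without WT normoxia sample 1 (-0.18, adjusted p = 0.104 in edgeR), without TAZKo normoxia sample 1 (-0.28, adjusted p = 0.0627 in edgeR) or 2 (-0.26, adjusted p = 0.0853 in edgeR), and with library size alone.

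Mmp16, another transmembrane MMP (ENSMUSG00000028226, chr4:17852893-18119145, plus strand), showed the largest genotype difference of the tested members in both conditions, by absolute log2 value. It had 3.76, 4.6 and 4.81 CPM in normoxic WT and 2.9, 3.18 and 3.42 in hypoxic WT. In TAZKo cells it had 0.631, 0.52 and 0.649 CPM in normoxia and 0.486, 0.657 and 0.453 in hypoxia, on 10 to 21 counts. The log2 differences were -2.85 ± 0.18 (adjusted p = 6.77e-08 in edgeR) and -2.56 ± 0.19 (adjusted p = 4.22e-07 in edgeR). Hypoxia lowered it, with a log2 change of -0.47 ± 0.14 (adjusted p = 0.0132 in edgeR) in the libraries labelled WT, and the change in those labelled TAZKo was -0.17 ± 0.25 (adjusted p = 0.673 in edgeR). Mmp17, which is anchored to the membrane by a lipid tail, ranged from 1.09 to 2.69 CPM over the 12 samples and was called in none of the 5 comparisons. Without WT normoxia sample 1 its hypoxia change was called in WT (0.52, adjusted p = 0.0372 in edgeR) and TAZKo (0.46, adjusted p = 0.0479 in edgeR). Mmp23, a membrane MMP of the opposite orientation, ranged from 0.833 to 2.12 CPM. Its TAZKo normoxia samples lay above the WT normoxia samples, a log2 difference of 0.82 ± 0.19 (adjusted p = 0.00525 in edgeR).

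Mmp9, the other gelatinase gene (ENSMUSG00000017737, chr2:164940780-164955850, plus strand), was the member with the deepest fall under hypoxia. It had 2.25, 1.4 and 1.99 CPM in normoxic WT and 3.83, 3.16 and 4.39 in normoxic TAZKo, and in hypoxia 0.25, 0.179 and 0.182 CPM in WT and 0.68, 0.38 and 0.453 in TAZKo. No group overlapped with another. The hypoxic WT values rest on 5, 4 and 5 counts, so the size of the change is uncertain. The fall was -3.20 ± 0.32 (adjusted p = 2.52e-06 in edgeR) in the libraries labelled WT and -2.95 ± 0.24 (adjusted p = 4.76e-07 in edgeR) in those labelled TAZKo. The libraries labelled TAZKo were higher in normoxia by 1.02 ± 0.19 (adjusted p = 0.00123 in edgeR) and in hypoxia by 1.26 ± 0.41 (adjusted p = 0.0317 in edgeR), the latter lost when WT hypoxia sample 2 or 3 or TAZKo hypoxia sample 1 or 3 was left out. The value without TAZKo hypoxia sample 1 was 1.03, adjusted p = 0.105 in edgeR, and without WT hypoxia sample 3 it was 1.17, adjusted p = 0.101 in edgeR. Mmp9 is also a product of macrophages and neutrophils. Ptprc and Adgre1 were at 0 or 1 count in each library, and the summed macrophage markers, 2 of 5 with more than 3 counts in every library (Cd68 and Csf1r), stood higher in hypoxia than in normoxia. Lyz2 of the same list was highest and lowest in the same groups as Mmp9, with means of 0.355 CPM in normoxic WT, 1.95 in normoxic TAZKo, 0.0725 in hypoxic WT and 0.587 in hypoxic TAZKo, on 1 to 75 counts. The part of such cells in the Mmp9 level was not tested.

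The 3 tested genes of the chromosome 9 cluster were called in different comparisons. Mmp13, the collagenase that serves rodents as the main interstitial collagenase (ENSMUSG00000050578, chr9:7272514-7283331, plus strand), had 4.95, 5.61 and 6.26 CPM in normoxic WT, 1.6, 1.3 and 1.05 in normoxic TAZKo, 2.55, 2.38 and 2.91 in hypoxic WT and 0.389, 0.553 and 0.592 in hypoxic TAZKo. No group overlapped with another. It was lower in the libraries labelled TAZKo, with a log2 difference of -2.11 ± 0.17 (adjusted p = 7.88e-07 in edgeR) in normoxia and -2.32 ± 0.22 (adjusted p = 3.64e-06 in edgeR) in hypoxia. Hypoxia lowered it, with a log2 change of -1.10 ± 0.16 (adjusted p = 5.67e-05 in edgeR) and -1.30 ± 0.24 (adjusted p = 0.000671 in edgeR) in the libraries labelled WT and TAZKo.

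Mmp10 and Mmp3 encode the stromelysins, which cleave proteoglycans and activate other proenzymes, and both were near the floor. Mmp10 had 3, 0 and 4 counts in normoxic WT, 0, 1 and 4 in normoxic TAZKo, 36, 19 and 25 in hypoxic WT and 8, 4 and 8 in hypoxic TAZKo. The WT hypoxia samples lay above all others. Its fitted rise in the libraries labelled WT was 3.53 ± 0.60 (adjusted p = 0.000245 in edgeR), and in those labelled TAZKo it was 1.95 ± 0.85 (adjusted p = 0.0816 in edgeR), where the conditions did not overlap. That second change passed the threshold in 3 of 18 other settings (no filter, the replicate block and the DESeq2 test), and the difference of responses was not called (-1.58 ± 1.31, adjusted p = 0.61 in edgeR). The genotype difference in hypoxia was -2.15 ± 0.48 (adjusted p = 0.00372 in edgeR). Mmp3 had 9, 10 and 10 counts in normoxic WT, 8, 12 and 9 in hypoxic WT and 12, 10 and 11 in hypoxic TAZKo, but 4, 2 and 2 in normoxic TAZKo. Its genotype difference in normoxia was -1.92 ± 0.44 (adjusted p = 0.00444 in edgeR) and its rise in the libraries labelled TAZKo was 2.01 ± 0.43 (adjusted p = 0.00176 in edgeR). The sizes of these changes are uncertain at such counts. Mmp3 and Mmp10 share 8.39% and 8.37% of their 50-base words, mainly with each other.

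Among the remaining MMPs, Mmp11, which furin activates before secretion, ranged from 59.5 to 99.6 CPM. It fell under hypoxia, with a log2 change of -0.45 ± 0.080 (adjusted p = 0.000376 in edgeR) in the libraries labelled WT and -0.22 ± 0.079 (adjusted p = 0.0371 in edgeR) in those labelled TAZKo, and was higher in the latter in hypoxia by 0.34 ± 0.080 (adjusted p = 0.00556 in edgeR). Without WT normoxia sample 1 its normoxia difference was called too (0.20, adjusted p = 0.0269 in edgeR). The fall in those labelled TAZKo was lost in 6 other settings, among them without TAZKo normoxia sample 1 (-0.21, adjusted p = 0.0744 in edgeR) and without TAZKo hypoxia sample 2 or 3. Mmp28 (epilysin) was higher in the libraries labelled TAZKo. It had 2.52, 2.54 and 1.45 CPM in normoxic WT, 5.05, 4.16 and 4.39 in normoxic TAZKo, 2.6, 2.73 and 3.16 in hypoxic WT and 4.86, 5.18 and 4.21 in hypoxic TAZKo. Genotypes did not overlap in either condition, and the genotype differences were 1.08 ± 0.19 (adjusted p = 0.00063 in edgeR) and 0.74 ± 0.18 (adjusted p = 0.00633 in edgeR). The hypoxia change in the libraries labelled WT was called without WT normoxia sample 1 (0.54, adjusted p = 0.0479 in edgeR). Mmp19 ranged from 15.4 to 22 CPM and was called in none of the 5 comparisons. Its hypoxia genotype difference of -0.25 ± 0.096 (adjusted p = 0.0632 in edgeR) passed without WT hypoxia sample 2 (-0.35, adjusted p = 0.0133 in edgeR) or WT normoxia sample 1 (-0.25, adjusted p = 0.0422 in edgeR), and its normoxia difference without WT hypoxia sample 1 (-0.23, adjusted p = 0.0407 in edgeR).

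The procollagen N-proteinases, which remove the amino-terminal propeptide of fibrillar procollagens, split by genotype. Adamts2 was slightly higher in the libraries labelled TAZKo, at 67.6 to 75.4 CPM in both conditions against 56.5 to 66 in those labelled WT. The differences were 0.23 ± 0.070 (adjusted p = 0.0231 in edgeR) in normoxia and 0.26 ± 0.070 (adjusted p = 0.0117 in edgeR) in hypoxia. The normoxia call was lost in 10 of 20 other settings, among them without TAZKo normoxia sample 3 (0.17, adjusted p = 0.146 in edgeR), and the hypoxia call in 1, without WT hypoxia sample 2 (0.20, adjusted p = 0.0583 in edgeR). Adamts14 stood higher in the libraries labelled TAZKo as well and fell under hypoxia in both genotypes. It had 16.8, 13.5 and 15 CPM in normoxic WT, 20.8, 19.1 and 21.5 in normoxic TAZKo, 6.55, 6.32 and 6.15 in hypoxic WT and 8.55, 8.64 and 8.88 in hypoxic TAZKo, with no overlap between any of the groups. The falls were -1.25 ± 0.093 (adjusted p = 1.35e-07 in edgeR) and -1.24 ± 0.088 (adjusted p = 1.4e-07 in edgeR), and the genotype differences 0.44 ± 0.084 (adjusted p = 0.00137 in edgeR) and 0.46 ± 0.097 (adjusted p = 0.00253 in edgeR). Adamts14, Mmp11, Mmp19 and Timp3 lie on chromosome 10, whose genes had a median genotype difference of 0.3 in normoxia and 0.29 in hypoxia relative to all genes. The part of this in the genotype differences of these members was not tested.

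Adamts3, the other enzyme of this group and also an activator of the lymphatic growth factor VEGF-C, was lower in the libraries labelled TAZKo (ENSMUSG00000043635, chr5:89677087-89883334, minus strand). It had 16, 15.8 and 15.7 CPM in normoxic WT, 5.68, 5.72 and 5.34 in normoxic TAZKo, 15.4, 10.9 and 11.1 in hypoxic WT and 6.85, 6.71 and 7.03 in hypoxic TAZKo. Every sample labelled TAZKo lay below every sample labelled WT. The differences were -1.51 ± 0.12 (adjusted p = 7.24e-07 in edgeR) in normoxia and -0.86 ± 0.12 (adjusted p = 0.000113 in edgeR) in hypoxia. Hypoxia lowered it, with a log2 change of -0.35 ± 0.11 (adjusted p = 0.0187 in edgeR) in the libraries labelled WT, where sample 1 stayed near the normoxia level, and the change in those labelled TAZKo was 0.30 ± 0.13 (adjusted p = 0.0712 in edgeR). Without WT hypoxia sample 1 the difference of responses, otherwise 0.65 ± 0.17 (adjusted p = 0.0661 in edgeR), passed the threshold (0.85, adjusted p = 0.00144 in edgeR), as did the change in the libraries labelled TAZKo (0.27, adjusted p = 0.0127 in edgeR). The difference was called in 6 of 19 other settings in all.

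Several other ADAMTS genes were lower in the libraries labelled TAZKo. Adamts4, an aggrecanase (ENSMUSG00000006403, chr1:171250421-171260637, plus strand), had 45.2, 41.9 and 42.9 CPM in normoxic WT, 21.2, 19.9 and 21.2 in normoxic TAZKo, 36.9, 29.5 and 33.8 in hypoxic WT and 17, 15.8 and 15.7 in hypoxic TAZKo. No group overlapped with another. The genotype differences were nearly equal, -1.06 ± 0.081 (adjusted p = 4.47e-07 in edgeR) and -1.05 ± 0.083 (adjusted p = 6.8e-07 in edgeR), as were the hypoxia changes of -0.37 (adjusted p = 0.00133 in edgeR) and -0.36 (adjusted p = 0.0031 in edgeR). Adamts4 and Adamts5, both aggrecanase genes, thus differed in course, since hypoxia raised Adamts5 in the libraries labelled WT and lowered Adamts4 there.

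Adamts7, which cleaves the cartilage protein COMP (ENSMUSG00000032363, chr9:90163069-90208071, plus strand), had 35.1, 31.6 and 32.4 CPM in normoxic WT and 53.9, 33.5 and 36.9 in hypoxic WT, against 12.4, 11.2 and 11.7 in normoxic TAZKo and 15.1, 14.4 and 16.4 in hypoxic TAZKo. Samples labelled TAZKo all lay below those labelled WT. The differences were -1.49 ± 0.15 (adjusted p = 4.47e-06 in edgeR) in normoxia and -1.43 ± 0.14 (adjusted p = 5.67e-06 in edgeR) in hypoxia. Its hypoxia change in the libraries labelled WT was 0.32 ± 0.14 (adjusted p = 0.0628 in edgeR) and passed the threshold with the replicate number as a block (0.31, adjusted p = 0.024 in edgeR), without WT normoxia sample 1 (0.36, adjusted p = 0.046 in edgeR) and without WT hypoxia sample 2 (0.39, adjusted p = 0.0237 in edgeR). In the libraries labelled TAZKo the change of 0.38 ± 0.15 (adjusted p = 0.0525 in edgeR) missed the threshold and passed it in 9 of 20 other settings, with the lowest p without WT hypoxia sample 1 among the samples left out (0.35, adjusted p = 0.00313 in edgeR).

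Adamts10, the relative of Adamts6 that also acts on fibrillin microfibrils (ENSMUSG00000024299, chr17:33524204-33553782, plus strand), went the other way from it. It had 36, 35.9 and 33.4 CPM in normoxic WT, 27.7, 22.4 and 25.4 in normoxic TAZKo, 21, 18.1 and 17.1 in hypoxic WT and 10.4, 10.6 and 11.7 in hypoxic TAZKo, with no overlap between groups. Hypoxia lowered it, with a log2 change of -0.91 ± 0.095 (adjusted p = 3.31e-06 in edgeR) in the libraries labelled WT and -1.20 ± 0.099 (adjusted p = 5.34e-07 in edgeR) in those labelled TAZKo. The genotype differences were -0.48 ± 0.092 (adjusted p = 0.00145 in edgeR) and -0.77 ± 0.10 (adjusted p = 5.9e-05 in edgeR). Adamts16 had 3.09, 2.15 and 3.22 CPM in normoxic WT, 1.09, 1.08 and 0.463 in normoxic TAZKo, 1.65, 2.15 and 1.16 in hypoxic WT and 0.728, 0.933 and 0.592 in hypoxic TAZKo. Samples labelled TAZKo lay below those labelled WT within each condition. The differences were -1.74 ± 0.30 (adjusted p = 0.0007 in edgeR) in normoxia and -1.11 ± 0.34 (adjusted p = 0.0216 in edgeR) in hypoxia, the latter lost without WT hypoxia sample 2 (-0.88, adjusted p = 0.1 in edgeR) and without TAZKo hypoxia sample 1 or 3. Hypoxia lowered it in the libraries labelled WT, at -0.79 ± 0.28 (adjusted p = 0.029 in edgeR), a call lost without WT normoxia sample 1 (-0.73, adjusted p = 0.0522 in edgeR) or 3 or WT hypoxia sample 3 (-0.62, adjusted p = 0.107 in edgeR). Adamts9, a versican-cleaving protease at 111 to 173 CPM, was called in none of the 5 comparisons. The hypoxia genotype difference of -0.30 ± 0.11 (adjusted p = 0.0531 in edgeR) narrowly missed the threshold and was called in 9 of 20 other settings, among them without WT hypoxia sample 2 (-0.40, adjusted p = 0.0208 in edgeR). Its highest value was that of WT hypoxia sample 1. Without that sample the hypoxia change in the libraries labelled WT was -0.047, adjusted p = 0.671 in edgeR.

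The inhibitors moved apart. Timp1, the broad soluble inhibitor (ENSMUSG00000001131, chrX:20870166-20874735, plus strand), had 58.5, 50.5 and 49.8 CPM in normoxic WT, 40.6, 39.2 and 37.5 in normoxic TAZKo, 67.3, 68.3 and 66.1 in hypoxic WT and 46.2, 48.3 and 46.8 in hypoxic TAZKo. All samples labelled TAZKo lay below all samples labelled WT, and no group overlapped with another. It was lower in the libraries labelled TAZKo, with a log2 difference of -0.44 ± 0.068 (adjusted p = 0.000272 in edgeR) in normoxia and -0.51 ± 0.067 (adjusted p = 6.2e-05 in edgeR) in hypoxia. Hypoxia raised it by 0.34 ± 0.067 (adjusted p = 0.000713 in edgeR) and 0.27 ± 0.068 (adjusted p = 0.00568 in edgeR), and the responses differed by -0.077 ± 0.095 (adjusted p = 0.743 in edgeR). The rise in the libraries labelled TAZKo was lost without TAZKo normoxia sample 3 (0.21, adjusted p = 0.0518 in edgeR) and with library size alone (0.17, adjusted p = 0.0631 in edgeR).

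Timp2, which also serves Mmp2 activation (ENSMUSG00000017466, chr11:118301069-118355740, minus strand), was higher in the libraries labelled TAZKo. It had 813, 777 and 802 CPM in normoxic WT, 987, 962 and 977 in normoxic TAZKo, 676, 612 and 586 in hypoxic WT and 922, 1006 and 959 in hypoxic TAZKo. The samples labelled TAZKo all lay above those labelled WT. The differences were 0.29 ± 0.059 (adjusted p = 0.00212 in edgeR) and 0.62 ± 0.060 (adjusted p = 4.05e-06 in edgeR). Hypoxia lowered it, with a log2 change of -0.35 ± 0.059 (adjusted p = 0.000238 in edgeR) in the libraries labelled WT, and the change in those labelled TAZKo was -0.019 ± 0.059 (adjusted p = 0.82 in edgeR). The difference between these responses missed the threshold, at 0.33 ± 0.084 (adjusted p = 0.0565 in edgeR), and passed it in 7 of 19 other settings, among them without WT normoxia sample 1 (0.32, adjusted p = 0.0398 in edgeR) or WT hypoxia sample 1 (0.41, adjusted p = 0.00809 in edgeR).

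Timp3, the matrix-bound inhibitor that also acts on ADAM and ADAMTS proteases (ENSMUSG00000020044, chr10:86300372-86349506, plus strand), rose under hypoxia in both genotypes. It had 693, 774 and 747 CPM in normoxic WT, 655, 695 and 704 in normoxic TAZKo, 936, 945 and 901 in hypoxic WT and 982, 1067 and 998 in hypoxic TAZKo. All hypoxia samples lay above all normoxia samples. The rises were 0.33 ± 0.058 (adjusted p = 0.000336 in edgeR) and 0.57 ± 0.058 (adjusted p = 4.15e-06 in edgeR). Genotype differences missed the threshold in both conditions (-0.11, adjusted p = 0.18 in edgeR, and 0.13, adjusted p = 0.0999 in edgeR). Without WT normoxia sample 1 both passed it (-0.15, adjusted p = 0.0365 in edgeR and 0.13, adjusted p = 0.0361 in edgeR), and so did the difference of responses (0.28, adjusted p = 0.0386 in edgeR), otherwise 0.24 ± 0.082 (adjusted p = 0.164 in edgeR).

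Genes around the members were read from lists, beside which the background shares of the 5 comparisons given above apply. Of 14 AP-1, ETS and RUNX transcription factor genes, 13 were tested. Under hypoxia 12 rose and none fell in the libraries labelled WT, and 10 rose and none fell in those labelled TAZKo, with median log2 changes of 1.11 and 0.61. The responses of Fos, Fosb, Jun and Junb were lower in the libraries labelled TAZKo, with differences of -1.78, -1.53, -0.83 and -0.75 (adjusted p = 0.00447, 0.00531, 0.00319 and 0.044 in edgeR). These genes encode proteins that bind TGANTCA, the motif of the Mmp13, Mmp3 and Mmp10 windows. Of these members, Mmp13 fell and Mmp10, on 0 to 36 counts, rose under hypoxia in the libraries labelled WT. The part of the AP-1 genes in the levels of these members was not tested. Of 12 genes of the plasminogen activator system, which yields the plasmin that cleaves MMP proenzymes, 9 were tested. Hypoxia raised 6 and lowered 1 in each genotype.

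Among 18 activators, inhibitors and surface partners of metalloproteinases, 14 were tested, and hypoxia raised 7 and lowered 4 in the libraries labelled WT and raised 8 and lowered 4 in those labelled TAZKo. Bsg, a surface inducer of MMP synthesis, rose by 1.97 and 2.04 on the log2 scale (adjusted p = 3.38e-11 and 3.17e-11 in edgeR). Reck, a membrane-anchored MMP inhibitor, changed by -1.10 and -1.15 (adjusted p = 4.73e-06 and 1.91e-06 in edgeR), and was higher in the libraries labelled TAZKo by 0.73 in normoxia (adjusted p = 0.00015 in edgeR). The membrane-anchored ADAM proteases, 10 of 12 tested, had 1 higher and 1 lower in normoxia and 2 higher and 1 lower in hypoxia between genotypes. Adam12 fell under hypoxia, with a log2 change of -1.67 ± 0.13 (adjusted p = 2.48e-07 in edgeR) and -1.42 ± 0.12 (adjusted p = 6.07e-07 in edgeR). Of 7 ADAMTS-like and papilin genes 6 were tested, and between genotypes the libraries labelled TAZKo were higher for 3 and lower for 2 in each condition. The median log2 difference of these 6 was 0.37 in normoxia and 0.95 in hypoxia, beside 0.0099 and -0.0078 for all tested genes. Adamtsl1 went against these medians and was lower in the libraries labelled TAZKo. Its log2 difference was -2.74 ± 0.22 (adjusted p = 6.18e-07 in edgeR) in normoxia and -2.56 ± 0.29 (adjusted p = 2.15e-05 in edgeR) in hypoxia.

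The list of other matrix enzymes had 7 of 13 tested, and it holds the glycosidase genes Hpse, Hyal1 and Hyal2 beside protease genes. The libraries labelled TAZKo were higher for 4 and lower for 1 of the 7 in normoxia, and higher for 2 and lower for none in hypoxia. Hypoxia raised 5 and lowered 1 in the libraries labelled WT. Htra3, a secreted serine protease, rose under hypoxia by 1.25 and 1.41 (adjusted p = 8.52e-06 and 1.75e-06 in edgeR). Of 20 substrate genes of ADAMTS and MMP proteases 14 were tested. In the libraries labelled TAZKo 2 were higher and 5 lower in normoxia, and 1 higher and 5 lower in hypoxia. Fbn1, the fibrillin of microfibrils, was lower, with a log2 difference of -2.37 ± 0.081 (adjusted p = 2.74e-10 in edgeR) and -1.43 ± 0.068 (adjusted p = 4.8e-09 in edgeR). It rose under hypoxia in both genotypes, by 1.11 and 2.05 (adjusted p = 1.54e-08 and 3.1e-10 in edgeR). Vcan, the versican substrate of Adamts1, Adamts4, Adamts5 and Adamts9, rose by 0.70 and 0.78 (adjusted p = 0.000177 and 9.78e-05 in edgeR) and was not called between genotypes. Acan, which encodes aggrecan, had at most 1 count in any library.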

How the data were processed

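The authors deposited 1 table of whole-number read counts per Ensembl gene for each of 12 TruSeq RNA libraries. The build is mm10, per the submitters' processing notes. Aligner, counting program, annotation and strand setting are not given in the sources used here. Gene symbols and coordinates came from GENCODE M21 (GRCm38) by ID (48349 of 48709 IDs matched). Counts were filtered with filterByExpr (14408 genes kept), scaled by TMM and fitted over all 12 samples, 1 coefficient per group, with the edgeR 4.0.16 quasi-likelihood test (limma 3.58.1, R 4.3.3), tested on simulated data. P-values were adjusted by Benjamini-Hochberg over all genes tested in a comparison (threshold 0.05). The SE is the log2 difference divided by the square root of F. Alternatives were DESeq2 1.42.0, other scalings and filters, a replicate block, lane, the 6 samples of a comparison, a log2 threshold of 1, and leaving out each sample.

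Every member is accounted for. Values per sample are given mainly for Mmp2, Mmp14, Timp1 and members called with an absolute log2 difference of at least 1, and list genes past the same limits could be named. Adamts5, Timp2, Timp3, Mmp24, Mmp27, Junb and Vcan were added after their values were seen. The members and lists were chosen with earlier results of these data known. Titles number the samples 1 to 3 in each group. Deviations from group means of same-numbered samples correlated at 0.258 to 0.512 between the normoxia groups and 0.217 to 0.467 between the WT groups. The numbers may therefore pair samples in these comparisons. Between the hypoxia groups the correlations were -0.061 to 0.163, and between the TAZKo groups -0.027 to 0.142, where no pairing was taken. The main fit has no term for pairing in any comparison, so its p-values leave it out. The replicate block is given as an alternative alone.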

Additional observations from a re-analysis of the deposited data

Results flagged for a closer look

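The hypoxia response differed between the genotypes, by the test of that difference in the edgeR quasi-likelihood model with adjusted p-values, in 5 members with 3 samples in each group. The log2 difference of responses (libraries labelled TAZKo minus WT) was -1.16 ± 0.11 (adjusted p = 0.00016 in edgeR) for Adamts1, -0.86 ± 0.15 (adjusted p = 0.00684 in edgeR) for Adamts5 and -0.91 ± 0.13 (adjusted p = 0.00289 in edgeR) for Adamts6. It was 0.69 ± 0.14 (adjusted p = 0.0189 in edgeR) for Mmp2 and 0.77 ± 0.14 (adjusted p = 0.00998 in edgeR) for Mmp15. Adamts1 and Adamts5 lie next to each other on chromosome 16.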

How the results depend on the processing

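Calls were followed over the alternatives in which the gene was still tested, leaving out the log2 threshold of 1. Those that held in all of these numbered 16 of 19 (genotype in normoxia), 15 of 19 (genotype in hypoxia), 18 of 19 (hypoxia in WT), 10 of 12 (hypoxia in TAZKo) and 4 of 5 (difference of responses). Requiring an absolute log2 difference of 1 left 9, 7, 7, 5 and 1 members, and a mean of at least 5 CPM left 12 in the first comparison, the former being a stricter rule and the latter testing fewer genes. The difference of responses was called in 8 members with no filter, 8 with the replicate block and 9 by the DESeq2 test, and in 4 to 8 when 1 sample was left out. The cause of these gains was not tested, and no share of all tested genes is given for these settings. With the replicate block 20 members were called between genotypes in normoxia, 20 in hypoxia, 20 for hypoxia in WT and 15 for hypoxia in TAZKo, and it changed no called direction. Differences of responses that it added were those of Timp2, Mmp14 and Adamts3 (adjusted p = 0.0374, 0.0412 and 0.0336 in edgeR).

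Changes of sign touched values that were called in neither fit. With library size alone the hypoxia change became -0.0368 for Mmp3 in WT and, in TAZKo, -0.084 for Adamts2, -0.0191 for Adamts5, -0.0903 for Mmp2 and -0.0269 for Mmp28. With no filter it was -0.0082 for Mmp3 in WT and -0.0148 for Adamts2 and -0.0223 for Mmp2 in TAZKo. With a mean of at least 5 CPM it was 2e-04 for Timp2 in TAZKo. Leaving out 1 sample gave, for the genotype, -0.14 to 0.0692 for Mmp15 in normoxia and -0.20 to 0.23 for Mmp3 in hypoxia. For hypoxia in WT it gave -0.13 to 0.0173 for Adamts2, -0.26 to 0.0504 for Mmp23, -0.20 to 0.19 for Mmp3 and -0.0468 to 0.20 for Adamts9. For hypoxia in TAZKo it gave -0.0646 to 0.0094 for Adamts2, -0.0597 to 0.0177 for Mmp2, -0.0248 to 0.11 for Adamts5, -0.56 to 0.0023 for Adamts16, -0.0324 to 0.12 for Mmp28 and -0.11 to 0.023 for Adamts9. For the difference of responses it gave -0.0083 to 0.11 for Adamts2, -0.0404 to 0.11 for Adamts4, -0.0589 to 0.11 for Adamts14, -0.12 to 0.17 for Mmp17, -0.12 to 0.0721 for Mmp19 and -0.0411 to 0.31 for Adamts7. With at most 36 counts in a library, Mmp3 and Mmp10 allow no firm fold size, and the 19 untested members were left out by the filter on low counts.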
